A study of Homo sapiens with 6 samples.

Results

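The genes described here encode the core machinery that builds autophagosomes, followed in PANC-1 cells exposed to a compound labelled CMR. The set was a list of 38 gene symbols, matched by symbol with no threshold on expression, and each matched a single row of the 58825 genes in the table. The 38 genes divide by role into 5 of the initiation complex, 6 of the phosphatidylinositol 3-kinase (PI3K) complex, 9 that act on lipid supply and transfer, and 18 of the conjugation systems. PANC-1 is an established human pancreatic ductal carcinoma line. RNA was sequenced from 3 libraries of cells treated with CMR at 8 µM for 48 h and from 3 libraries of control cells. The labels' protocols describe isolation of poly(A) RNA on poly-T beads but then name both poly(A)- and poly(A)+ fractions and an adipose source, so which fraction the libraries hold is uncertain. The sources used here give neither the full name of CMR nor the treatment of the control cells. The labels give no separate cultures behind the libraries of a group, so p-values here reflect library-to-library spread alone, and this spread may be technical. Both groups are the same line under the same growth conditions, with no genetic change named.

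Autophagy encloses cytoplasm in a double membrane, the autophagosome, and delivers it to lysosomes. As background, the ULK kinase complex starts the process and the PI3K complex then marks the membrane with phosphatidylinositol 3-phosphate. WIPI proteins read that lipid, and ATG2, ATG9A, VMP1 and TMEM41B supply and distribute membrane lipid. A ubiquitin-like conjugation pathway finally attaches LC3 and GABARAP proteins to the membrane. Pancreatic ductal carcinoma cells are known for a high basal use of this pathway.

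Most of this machinery had more mRNA in CMR-treated cells. Of the 38 genes, 25 rose, 2 fell, 10 did not pass the test and 1 was too low to test, by edgeR's quasi-likelihood test on counts with an adjusted p under 0.05 over all genes. The same rule called 20.5% of the 19200 tested genes higher, 18.1% lower and 38.6% in either direction. These shares depend on which genes are kept. A separate test kept the 7154 genes averaging at least 5 FPKM (fragment count per gene length and library total) in the higher group. Of these, 2272 were called higher and 2183 lower. The 23 members among them had 19 called higher and 0 lower. A gene could pass this filter through its higher group alone. WIPI1, ULK1, WDR45 and BECN1 averaged under 5 FPKM in control and passed through CMR. No kept member passed through control alone. ULK2 and ATG16L2, the members that fell, were not kept, so these member counts give no separate support for the rise. A rise of at least 2-fold was called in 14 of the 38 genes, against 9.87% of all tested genes. A fall of that size was called in 1, against 8.55% of all tested genes. The median log2 fold change was 0.66 over the 37 tested members and -0.01 over all tested genes. In 25 members every CMR library was above every control library, which held for 27.3% of all tested genes. In 4 members every CMR library was below every control library, which held for 26.6%. Under upper-quartile scaling, which moved the median of all genes by -0.13, 21 members were called higher and 3 lower. Of the 19200 tested genes it called 3250 higher and 4324 lower, against 3928 and 3476 with the scaling used here. As a share of calls over all genes, 42.9% were higher, against 53.1% with the scaling used here. In bulk RNA a change in each cell and a change in the share of cells that express a gene cannot be told apart.

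**Figure D1:**
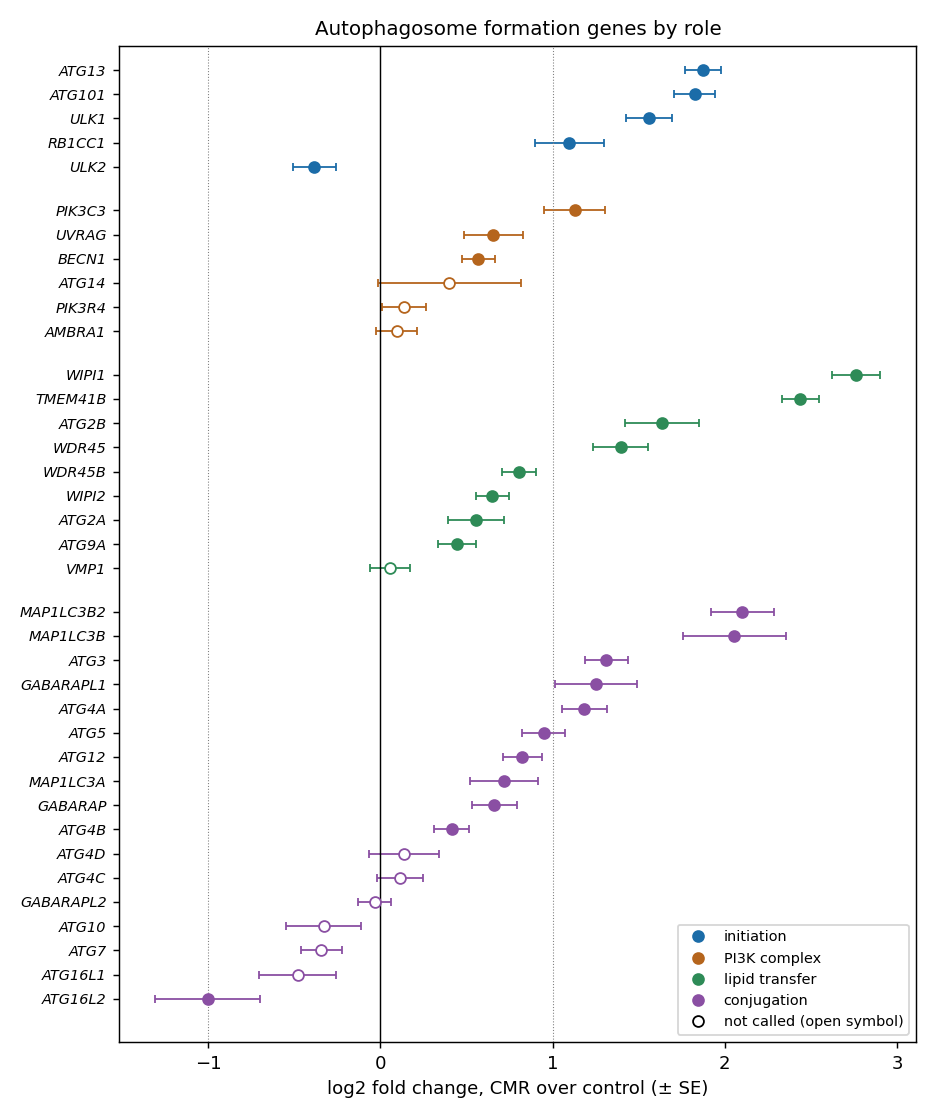
Log2 fold change, CMR over control, of the 37 tested members, ordered within each role; bars are SE from edgeR, filled symbols passed the adjusted threshold and open symbols did not, and dotted lines mark a 2-fold difference. WIPI1 had the highest value at 2.76 and ATG16L2 the lowest at -1.003.

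The roles differed in how many members were called. In the initiation complex 4 of 5 rose and 1 fell, with a median of 1.56. Among lipid genes 8 of 9 rose and none fell, with a median of 0.81. In the PI3K complex 3 of 6 rose and none fell, with a median of 0.48. In the conjugation systems 10 of 18 rose and 1 fell, with a median of 0.66 over the 17 tested. Over all tested genes 20.5% were called higher and 18.1% lower. The role counts come from small groups, and the difference between roles was not tested.

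**Figure D2:**
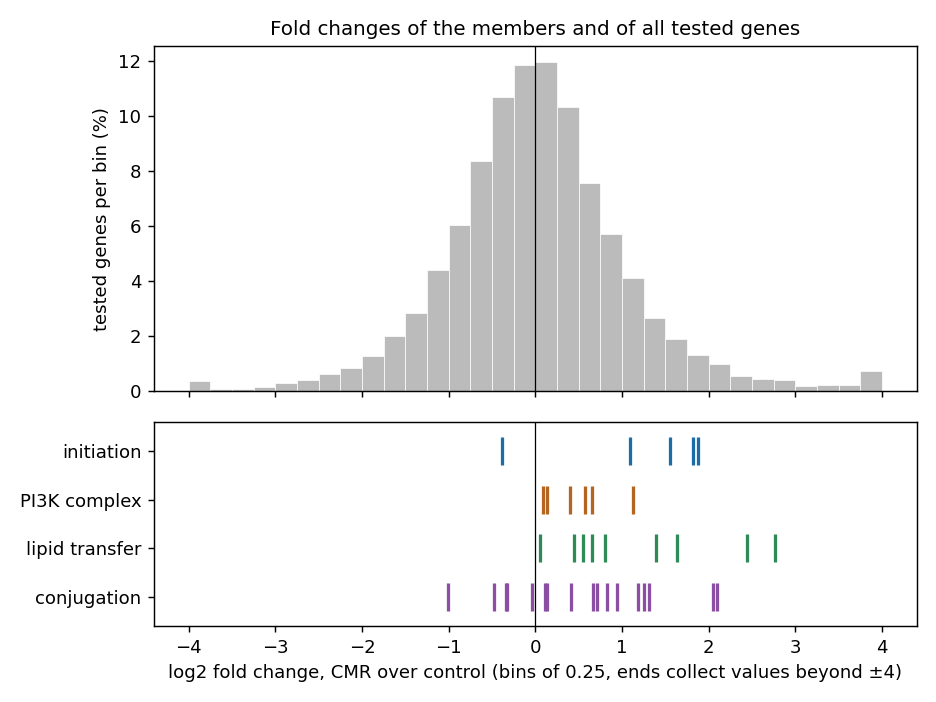
Upper panel, percent of the 19200 tested genes in each bin of log2 fold change, CMR over control; lower panel, 1 tick for each tested member, by role. All tested genes centre near -0.01, while the members extend from -1.003 to 2.76.

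Library totals ran from 66460535 to 70129221 counts with CMR and from 51147268 to 63811430 in control, so CMR libraries were deeper. The 38 genes held 0.326 to 0.369% of counts with CMR and 0.188 to 0.194% in control. Of the 6 epithelial markers, all were detected in every library, and their summed level was 153 to 280 FPKM with CMR and 614 to 716 FPKM in control, where FPKM is the fragment count per gene length and library total. KRT8 and KRT19 averaged 45.5 and 49.5 FPKM with CMR, against 173 and 262 FPKM in control, and keratins dominate the sum. EPCAM averaged 8.01 FPKM with CMR and 7.31 FPKM in control, and CDH1 had 2.56, 5.54 and 1.42 FPKM with CMR, against 4.007, 8.69 and 3.85 FPKM in control, with overlapping groups. The part of the keratin difference in the results below was not tested. Among adipocyte markers, listed because the extraction text mentions adipose tissue, LEP was at 0 in every library and the 5 genes summed to 0.0122 to 0.0830 FPKM with CMR and 0 to 0.164 FPKM in control. The 3 endothelial markers summed to at most 0.0603 FPKM with CMR and 0.0255 FPKM in control, and the 5 acinar and islet markers to at most 0.164 FPKM with CMR and 0.0940 FPKM in control, with CPA1, INS and GCG at 0. Of the 3 leukocyte markers, PTPRC reached at most 4 counts in a library and CD3E was at 0, while CD68 averaged 26.4 FPKM with CMR and 29.2 FPKM in control.

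Upstream sequences are shown for 6 members, because they were risen genes with the largest change or held a known stress-related motif. Promoter windows from RefSeq (build GRCh38.p14, 250 bases before to 50 after the start) were at hand for 33 of the 38 genes. In the 250 bases before the start given here, capitals mark the motif named for each gene. WIPI1 and TMEM41B, with the largest rises, held none of the motifs searched. ATG101 (TGACTACGC at -120) and MAP1LC3B (TGACCAGGC at -46) held the antioxidant response element core, GABARAPL1 the cyclic AMP response element at -30, and ATG3 an E-box at -18 with another after the start, positions being counted from the start. The windows were chr17:68457497-68457746 (minus strand) for WIPI1, chr11:9314594-9314843 (minus) for TMEM41B, chr12:52069728-52069977 (plus) for ATG101, chr16:87392086-87392335 (plus) for MAP1LC3B, chr12:10212627-10212876 (plus) for GABARAPL1 and chr3:112561963-112562212 (minus) for ATG3.
WIPI1: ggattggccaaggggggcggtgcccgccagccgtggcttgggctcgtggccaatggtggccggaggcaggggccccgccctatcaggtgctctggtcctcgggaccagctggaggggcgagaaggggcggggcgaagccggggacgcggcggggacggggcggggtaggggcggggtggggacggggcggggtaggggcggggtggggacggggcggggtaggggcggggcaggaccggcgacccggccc
TMEM41B: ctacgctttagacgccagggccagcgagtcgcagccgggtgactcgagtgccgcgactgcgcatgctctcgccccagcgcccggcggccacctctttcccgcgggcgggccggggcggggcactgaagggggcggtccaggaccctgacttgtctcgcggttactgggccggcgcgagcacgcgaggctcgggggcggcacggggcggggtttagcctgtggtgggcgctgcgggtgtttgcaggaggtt
ATG101: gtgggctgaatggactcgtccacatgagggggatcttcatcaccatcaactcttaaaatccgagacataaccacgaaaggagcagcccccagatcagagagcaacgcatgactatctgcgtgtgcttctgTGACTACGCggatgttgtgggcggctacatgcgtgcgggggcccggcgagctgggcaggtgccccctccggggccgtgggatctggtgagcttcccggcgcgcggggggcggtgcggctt
MAP1LC3B: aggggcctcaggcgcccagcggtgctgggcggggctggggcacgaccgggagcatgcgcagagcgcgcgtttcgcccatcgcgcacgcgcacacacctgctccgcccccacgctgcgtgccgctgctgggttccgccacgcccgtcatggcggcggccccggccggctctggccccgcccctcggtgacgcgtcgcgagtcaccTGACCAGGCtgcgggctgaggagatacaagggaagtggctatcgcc
GABARAPL1: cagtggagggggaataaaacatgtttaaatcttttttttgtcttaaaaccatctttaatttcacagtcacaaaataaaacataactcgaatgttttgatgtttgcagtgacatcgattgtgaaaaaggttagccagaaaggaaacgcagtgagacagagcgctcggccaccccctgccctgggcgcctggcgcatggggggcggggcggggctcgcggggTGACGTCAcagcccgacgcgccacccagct
ATG3: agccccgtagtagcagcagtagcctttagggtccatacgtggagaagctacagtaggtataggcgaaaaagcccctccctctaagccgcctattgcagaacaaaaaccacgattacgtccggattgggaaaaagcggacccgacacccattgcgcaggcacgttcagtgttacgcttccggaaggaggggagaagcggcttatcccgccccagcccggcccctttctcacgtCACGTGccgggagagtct
Both strands were searched over all 300 bases for 6 motifs, and the background was the share of 34796 distinct promoter windows that held each. The 33 member genes had 37 windows, and a gene counted if any of its windows matched. Member shares are thus per gene and background shares per window, so they are not strictly alike. The ATF4-C/EBP composite element TGATGNAA was in 2 of 33 member genes (6.06%), against 3.63% of all windows. One of them was WDR45, where the match TGATGTAA spans the start from -6, and the other the barely expressed MAP1LC3C. The antioxidant response element core TGACNNNGC was in 2 (6.06%), against 13.34% of all windows. The E-box CACGTG was in 2 (6.06%), ATG3 and ATG14, against 7.2%, and the cyclic AMP response element TGACGTCA in 1 (3.03%), against 1.84%. The CLEAR element, an E-box with GT before it and AC after it, was in 0 (0.35% of all), as was the ER stress response element, CCAAT and CCACG with 9 bases between them (0.08% of all). A match is a description of letters in these windows and not of a bound factor. By the table's GRCh38 coordinates, WIPI1 spans chr17:68420948-68457499, TMEM41B spans chr11:9280654-9314636, MAP1LC3B spans chr16:87383953-87404779, ATG101 spans chr12:52069246-52077494, GABARAPL1 spans chr12:10212458-10223128 and ATG3 spans chr3:112532509-112561963. The windows shown for MAP1LC3B, ATG101 and GABARAPL1 therefore lie wholly inside the table's span of the gene, and those for WIPI1, TMEM41B and ATG3 overlap its edge.

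The initiation complex consists of the ULK1 or ULK2 kinase with ATG13, ATG101 and the scaffold RB1CC1 (FIP200). Every partner of the kinase rose, while the 2 kinase genes went opposite ways. ULK1, the main initiating kinase, had 117, 97.3 and 83.8 normalised CPM (the count relative to the scaled library total) with CMR, against 33.9, 33.0 and 34.2 in control. All CMR libraries of ULK1 lay well above a tight control group (log2 fold change 1.56 ± 0.13 SE, edgeR adjusted p = 0.000262). Its paralog ULK2 had 27.2, 29.9 and 23.8 CPM with CMR, against 37.9, 33.9 and 33.9 in control. The ULK2 groups did not overlap and the gene fell (log2 fold change -0.38 ± 0.12, edgeR adjusted p = 0.0447). That call was lost without any 1 library other than CMR replicate 2, with adjusted p from 0.0669 without CMR replicate 1 to 0.153 without control replicate 1. Without CMR replicate 3, control replicate 2 or control replicate 3 it was 0.0872, 0.0947 and 0.0895. Per length, ULK1 made up 82.6 ± 2.06% of the summed FPKM of the pair with CMR and 55.4 ± 1.52% in control (SD, n = 3 each).

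ATG13, the adaptor that holds the kinase complex together, had 194, 177 and 204 CPM with CMR, against 56.5, 53.0 and 47.5 in control. The groups were far apart relative to their spread (log2 fold change 1.87 ± 0.10, edgeR adjusted p = 6.2e-05). ATG101, which stabilises ATG13, had 146, 142 and 180 CPM with CMR, against 46.9, 42.9 and 42.6 in control, a rise close in size to that of ATG13 (1.82 ± 0.12, edgeR adjusted p = 9.5e-05). RB1CC1 had 141, 222 and 249 CPM with CMR, against 88.2, 102 and 95.5 in control. CMR replicate 1 was the lowest of its group but still above every control library (1.10 ± 0.20, edgeR adjusted p = 0.00495).

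The PI3K complex makes phosphatidylinositol 3-phosphate and comprises the lipid kinase PIK3C3 (VPS34), its regulatory subunit PIK3R4 (VPS15), BECN1 and either ATG14 or UVRAG. Its catalytic subunit rose most. PIK3C3 had 33.3, 39.2 and 47.7 CPM with CMR, against 15.4, 20.4 and 19.2 in control. The ranges were separate, and the rise passed the test (log2 fold change 1.13 ± 0.18, edgeR adjusted p = 0.00240). BECN1, the scaffold subunit, rose less, at 50.3, 54.9 and 55.2 CPM with CMR and 36.9, 34.0 and 37.2 in control (0.57 ± 0.10, edgeR adjusted p = 0.00363). The span of BECN1 overlaps that of PSME3 on the other strand, which had 3.26 times its mean count and no call (log2 fold change 0.31, edgeR adjusted p = 0.480).

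UVRAG, the subunit of the endosomal form of the complex, rose by 0.65 ± 0.17 on the log2 scale (edgeR adjusted p = 0.0208). Omitting CMR replicate 1 gave an adjusted p of 0.0544, omitting CMR replicate 3 gave 0.0562, and omitting control replicates 1 and 2 gave 0.0756 and 0.0718, so each ended the call. ATG14, which directs the complex to autophagosome formation, had 37.3, 41.2 and 13.6 CPM with CMR, against 26.6, 15.5 and 27.7 in control. Replicate 3 of CMR was the lowest of all 6 libraries, and the CMR libraries differed by 3.03-fold, the widest spread of any tested member within a group. ATG14 was not called (log2 fold change 0.40, 95% interval -0.58 to 1.38, edgeR adjusted p = 0.492), nor was it without CMR replicate 3 (0.75, adjusted p = 0.0719). PIK3R4 was not called either, with an interval of -0.16 to 0.44, and neither was AMBRA1, a BECN1-binding regulator, with an interval of -0.19 to 0.38. The sign of AMBRA1's small difference turned under upper-quartile scaling. AMBRA1 shares part of its span with AC024293 on the same strand, which had 53.5% of its mean count.

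**Figure D3:**
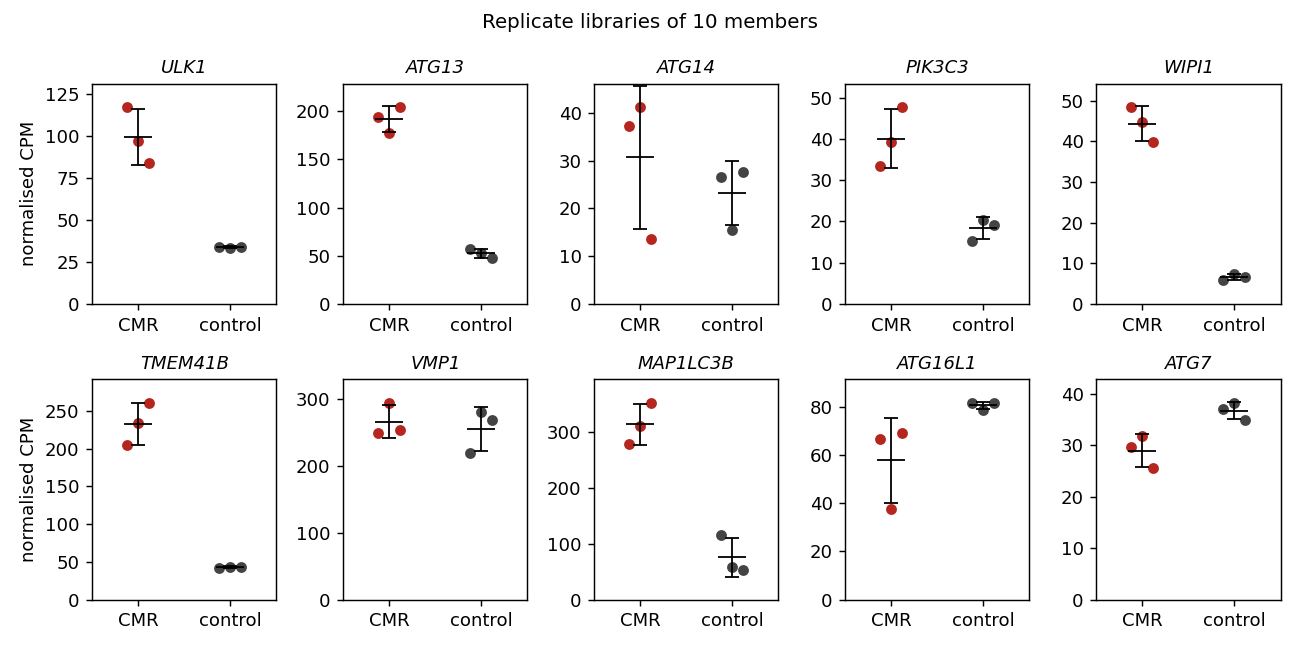
Normalised CPM of 10 members in the 3 CMR and 3 control libraries; points are libraries, bars the mean and SD. WIPI1 and TMEM41B are separate by a wide margin, ATG14 and VMP1 overlap, and ATG16L1 and ATG7 lie lower with CMR without passing the test.

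Genes for the expanding membrane held the largest rises of the list. WIPI1, which binds phosphatidylinositol 3-phosphate on the forming membrane, had 48.4, 44.9 and 40.0 CPM with CMR, against 5.85, 7.24 and 6.55 in control. Every CMR library was several times above every control library (log2 fold change 2.76 ± 0.14, edgeR adjusted p = 5.1e-05). TMEM41B, an ER membrane scramblase needed for autophagosome growth, had 205, 234 and 261 CPM with CMR, against 41.9, 43.9 and 43.3 in control. It rose 5.42-fold (log2 fold change 2.44 ± 0.11, edgeR adjusted p = 4.3e-05). VMP1, the scramblase that works with TMEM41B, had 250, 294 and 253 CPM with CMR, against 218, 280 and 268 in control. Its groups overlapped, it was not called (interval -0.22 to 0.33, edgeR adjusted p = 0.746), and the sign of its difference turned under upper-quartile and library-size scaling. The span of VMP1 overlaps that of PTRH2 on the other strand, which had 20.3% of its mean count and rose (log2 fold change 0.77, edgeR adjusted p = 0.00297).

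The lipid-transfer protein genes ATG2A and ATG2B changed by different amounts. ATG2B had 40.4, 56.2 and 74.1 CPM with CMR, against 18.7, 17.4 and 18.9 in control. The CMR libraries spread widely but none came near the control range (log2 fold change 1.63 ± 0.22, edgeR adjusted p = 0.00125). ATG2A rose less, by 0.55 ± 0.16 (edgeR adjusted p = 0.0310), a call lost without any 1 library other than CMR replicate 2 and with upper-quartile (0.0770) or library-size scaling (0.0528). Its adjusted p was 0.0816 without CMR replicate 1, 0.0930 without CMR replicate 3, and 0.0906, 0.0937 and 0.0758 without control replicates 1, 2 and 3. The ATG2A call was also lost with limma on log2(FPKM + 0.1) (limma adjusted p = 0.0634) and on log2(FPKM + 1) (limma adjusted p = 0.0638). ATG2B was 53.4 ± 9.15% of the summed FPKM of the pair with CMR and 35.5 ± 0.721% in control (SD, n = 3 each). In CMR replicate 1 ATG2A remained the higher of the pair, at 57.1%.

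The other 3 readers of phosphatidylinositol 3-phosphate rose as well. WDR45 (WIPI4), which binds ATG2, had 40.5, 32.2 and 34.1 CPM with CMR, against 12, 15.96 and 12.7 in control. Its ranges were separate (log2 fold change 1.39 ± 0.16, edgeR adjusted p = 0.000701). WDR45 overlaps PRAF2 on the same strand over 2533 bases, and PRAF2 had 84.2% of its mean count with no call (0.48, edgeR adjusted p = 0.102). WIPI2, which recruits ATG16L1 to the membrane, rose by 0.65 ± 0.10 (edgeR adjusted p = 0.00215). WDR45B (WIPI3) rose by 0.81 ± 0.10 (edgeR adjusted p = 0.000883). It overlaps FOXK2 on the other strand, which had 55.6% of its mean count and rose by 0.34 (edgeR adjusted p = 0.0230). ATG9A, the scramblase of the vesicles that seed the membrane, rose by 0.45 ± 0.11 (edgeR adjusted p = 0.0167), a call lost with upper-quartile scaling (0.0548) and without control replicate 2 (0.0672) or control replicate 3 (0.0517).

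WIPI1 and WIPI2 exchanged places in level per length. The FPKM of WIPI1 was 1.41, 1.48 and 1.14 times that of WIPI2 with CMR, against 0.272, 0.325 and 0.328 times in control. This order depends on the lengths behind the FPKM. Count, FPKM and the library's total count together imply 4066 bases for WIPI1 and 10703 for WIPI2. Exons in release 29 of the GENCODE annotation cover 3402 bases for WIPI1 and 8977 for WIPI2. The implied values are therefore relative lengths and not exact ones. By counts WIPI2 stayed higher with CMR, at 5999, 5432 and 6047 against 3199, 3052 and 2620 for WIPI1. WDR45B stayed the most abundant of the 4 readers, at 79.6 ± 2.77% of their summed FPKM with CMR and 86.2 ± 0.770% in control (SD, n = 3 each).

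**Figure D4:**
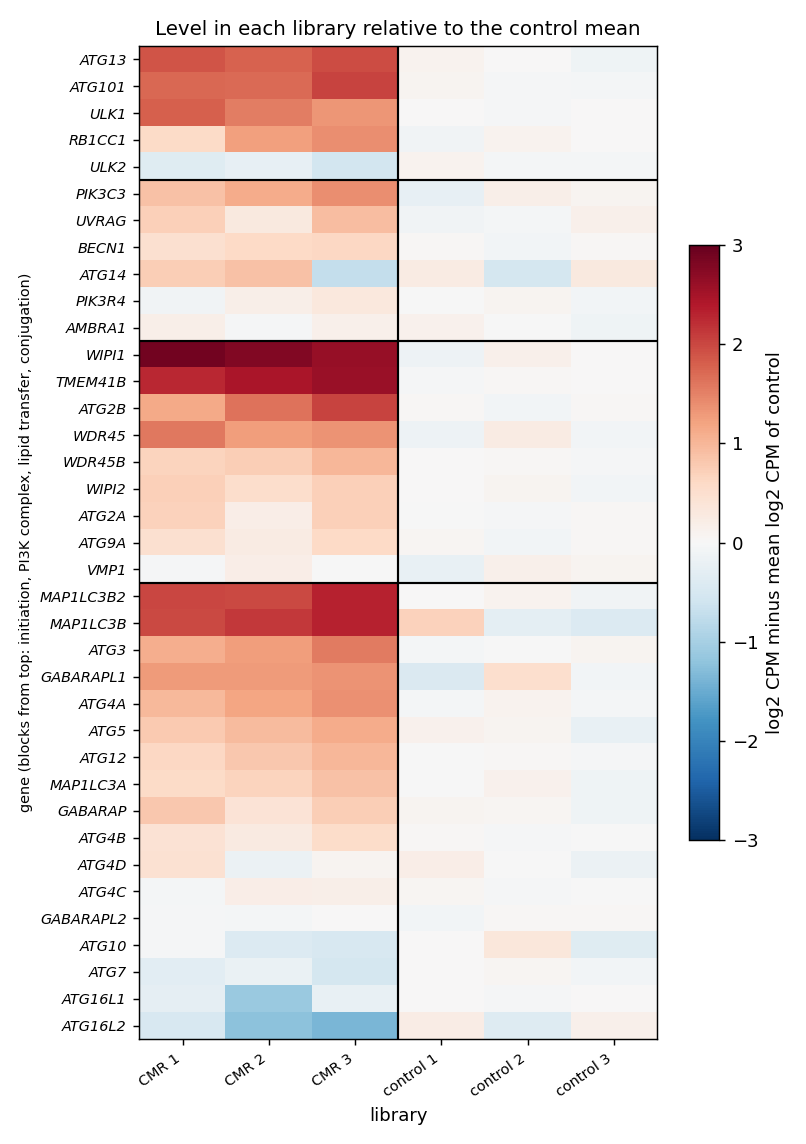
Each cell is the log2 normalised CPM of 1 library minus the mean log2 CPM of the control libraries, for 37 tested members in 4 role blocks, CMR libraries on the left; the colour scale ends at 3 on either side. Red cells in all 3 CMR columns mark most genes of the initiation and lipid blocks, and ATG14 is blue only in CMR replicate 3 and control replicate 2.

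In the conjugation systems, LC3 and GABARAP proteins are the ubiquitin-like modifiers, ATG4 proteases trim them, ATG7 activates them and ATG3 carries them to the lipid. MAP1LC3B, the most used LC3 marker gene, had 279, 310 and 351 CPM with CMR, against 115, 57.5 and 53.7 in control. Control replicate 1 was 2.14-fold above control replicate 3, yet well below every CMR library (log2 fold change 2.06 ± 0.30, edgeR adjusted p = 0.00181). Without control replicate 1 the log2 fold change was 2.496 (edgeR adjusted p = 0.000773). The span of MAP1LC3B overlaps that of FBXO31 on the other strand, which had 14.3% of its mean count and rose by 0.76 (edgeR adjusted p = 0.00206). MAP1LC3B2, a near-identical copy, had 7.78, 7.76 and 9.64 CPM with CMR, against 1.97, 2.09 and 1.801 in control, and rose by 2.10 ± 0.19 (edgeR adjusted p = 0.000277). Its counts were 2.79, 2.51 and 2.75% of those of MAP1LC3B with CMR and 1.71, 3.64 and 3.36% in control. The sources used here do not say how reads matching both copies were assigned, so the value of MAP1LC3B2 is uncertain.

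The other LC3 and GABARAP genes rose less or were not called. GABARAPL1 had 19.8, 19.8 and 20.9 CPM with CMR, against 6.04, 11.7 and 7.76 in control. The CMR libraries were nearly equal and all above the control range (log2 fold change 1.25 ± 0.24, edgeR adjusted p = 0.00584). GABARAP rose by 0.66 ± 0.13 (edgeR adjusted p = 0.00703). MAP1LC3A, at 3.63 CPM with CMR and 2.21 CPM in control, rose by 0.72 ± 0.20 (edgeR adjusted p = 0.0259), a call lost without any 1 library other than CMR replicate 1 and with upper-quartile scaling (0.0524). Its adjusted p was 0.0600 and 0.0682 without CMR replicates 2 and 3, and 0.0765, 0.0547 and 0.0841 without control replicates 1, 2 and 3. Without the filter on low counts the edgeR adjusted p of MAP1LC3A was 0.0552. GABARAPL2 had 33.7, 33.4 and 34.9 CPM with CMR, against 32.9, 35.7 and 35.8 in control. Its groups overlapped and the interval of the log2 difference was narrow, -0.26 to 0.20 (edgeR adjusted p = 0.814). MAP1LC3C had 3 counts in CMR replicate 2 and 3 in control replicate 3 and none in the other libraries, so it was not tested.

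Summed over the family, the level per length was 98.6, 93.4 and 107 FPKM with CMR, against 53.6, 45.6 and 41.1 FPKM in control. MAP1LC3B made up 51 ± 3.68% of that sum with CMR and 26.9 ± 8.56% in control (SD, n = 3 each). GABARAP made up 29.5 ± 3.89% with CMR and 42.1 ± 3.10% in control, and GABARAPL2 9.29 ± 0.486% with CMR and 21.7 ± 3.74% in control. GABARAP was the most abundant of the family in all 3 control libraries, and MAP1LC3B in all 3 CMR libraries.

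**Figure D5:**
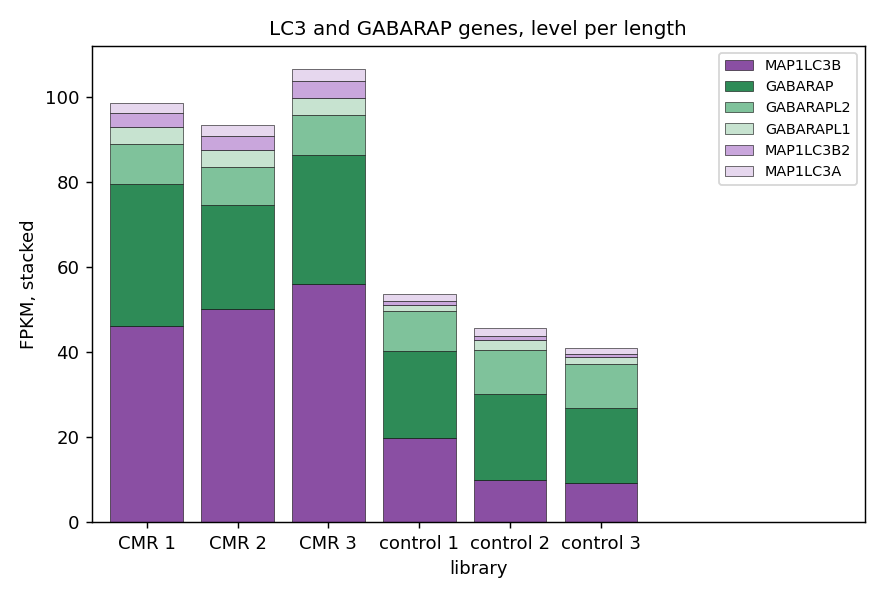
Stacked FPKM of 6 LC3 and GABARAP genes in each library (MAP1LC3C, near 0, is left out). The sum is 93.4 to 107 FPKM in CMR libraries and 41.1 to 53.6 FPKM in control libraries, and the MAP1LC3B segment is the one that differs most.

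The enzymes of conjugation did not move as a block. ATG3, the carrier enzyme that passes LC3 to phosphatidylethanolamine, had 257, 288 and 351 CPM with CMR, against 115, 119 and 127 in control. Its groups were well apart (log2 fold change 1.31 ± 0.12, edgeR adjusted p = 0.000354). ATG3 overlaps SLC35A5 on the other strand, which had 13.1% of its mean count and no call (0.31, edgeR adjusted p = 0.264). ATG5 and the ubiquitin-like modifier ATG12, which are joined to each other before LC3 is attached, rose by 0.95 ± 0.13 (edgeR adjusted p = 0.00131) and 0.82 ± 0.11 (edgeR adjusted p = 0.00145). The activating enzyme ATG7, which serves both branches, had 29.6, 31.8 and 25.5 CPM with CMR, against 37.1, 38.2 and 34.96 in control. All its CMR libraries were below the control range, but it missed the threshold (-0.34 ± 0.12, edgeR adjusted p = 0.0575). It passed with upper-quartile scaling (-0.47, adjusted p = 0.0193) and library-size scaling (-0.41, adjusted p = 0.0329). It also passed with limma on log2(FPKM + 0.1) (limma adjusted p = 0.0315) and on log2(FPKM + 1) (limma adjusted p = 0.0312). ATG7 overlaps VGLL4 on the other strand, which had 1.86 times its mean count and no call (0.01, edgeR adjusted p = 0.932).

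ATG10, the carrier enzyme for ATG12, had 12.5, 9.67 and 9.23 CPM with CMR, against 13.0, 16.5 and 10.1 in control, and was not called (interval -0.85 to 0.18). It lies across RPS23 on the other strand, which had 48.5 times its mean count, and across PPIAP11 on the other strand, which had 11.6% of its mean count. ATG16L1, which completes the ATG12-ATG5 complex, had 66.4, 37.4 and 69.2 CPM with CMR, against 81.5, 78.8 and 81.3 in control. Each CMR library was below each control library and CMR replicate 2 was the lowest, but the difference did not pass (-0.48, interval -1.0 to 0.04, edgeR adjusted p = 0.129). ATG16L2, its low-expressed paralog, had 3.41, 2.04 and 1.85 CPM with CMR, against 5.60, 3.68 and 5.34 in control, and fell (-1.003 ± 0.30, edgeR adjusted p = 0.0359). Omitting CMR replicate 2 or 3 gave an adjusted p of 0.111 and 0.10, and omitting control replicate 1 or 3 gave 0.112 and 0.101, so each ended the call. ATG16L2 overlaps FCHSD2 on the other strand, which had 12.9 times its mean count and fell by 0.40 on the log2 scale (edgeR adjusted p = 0.0181).

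Of the 4 ATG4 proteases, ATG4A had 62.7, 72.4 and 83.3 CPM with CMR, against 30.9, 34.4 and 30.7 in control. It rose clear of the control range (log2 fold change 1.18 ± 0.13, edgeR adjusted p = 0.000598). ATG4B, the most active protease of the family on LC3, rose by 0.41 ± 0.10 (edgeR adjusted p = 0.0165), a call lost with upper-quartile scaling (0.0602) and without control replicate 2 (0.0647) or control replicate 3 (0.0585). ATG4C (interval -0.20 to 0.42) and ATG4D (interval -0.34 to 0.61) were not called, and the sign of ATG4C turned under upper-quartile scaling. ATG4D overlaps KRI1 on the other strand, which had 4.62 times its mean count. ATG4A made up 56.1 ± 3.79% of the summed FPKM of the proteases with CMR and 40.5 ± 2.34% in control (SD, n = 3 each).

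Levels per length spanned a wide range. WDR45B was the most abundant of the 38 in both groups, at 93.9 ± 9.63 FPKM with CMR and 56.7 ± 1.13 FPKM in control (SD, n = 3 each). Below it with CMR came MAP1LC3B at 50.8 ± 5.01 FPKM, TMEM41B at 44.5 ± 4.53, ATG3 at 39.9 ± 5.73 and ATG101 at 39.9 ± 4.82, of which ATG3 and ATG101 differed by less than their SDs. Next after WDR45B in control came VMP1 at 32.1 ± 4.11 FPKM, GABARAP at 19.6 ± 1.59 and ATG3 at 17.0 ± 0.832. WIPI1 ranked 15 with CMR and 32 in control, counting from the most abundant of the 38, TMEM41B ranked 3 with CMR and 13 in control, and ATG16L1 ranked 21 with CMR and 9 in control. With CMR 15 members averaged at least 10 FPKM, against 10 members in control. The lowest were MAP1LC3C, listed near 0, and ATG16L2 at 0.229 ± 0.0860 FPKM with CMR and 0.487 ± 0.105 FPKM in control.

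The members also varied between libraries of a group. CMR replicate 3 was the highest CMR library in 24 of the 37 tested members (64.9%), against 35.2% of all tested genes. The exceptions included ULK1 and WIPI1, highest in CMR replicate 1. The median coefficient of variation of the members was 12.3% with CMR and 6.61% in control, against 18.8% with CMR and 13.7% in control over all tested genes. Relative spread is larger at low counts, and members and all tested genes were not matched for level. The lower variation therefore cannot be read as a trait of the members.

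Genes around this machinery were counted in 4 lists, to be read against the 20.5% of all tested genes called higher and the 18.1% called lower. Among 16 genes of mTORC1, which restrains ULK1, of AMPK, which activates it, and of their regulators such as the TSC complex, RHEB and STK11, 6 rose and 1 fell, with a median log2 fold change of 0.30. With 9 of the 16 not called, the share called in either direction was near the 38.6% of all tested genes. PRKAB2 and PRKAB1, the AMPK beta subunits, rose by 2.25 ± 0.18 (edgeR adjusted p = 0.000196) and 1.14 ± 0.13 (edgeR adjusted p = 0.000735), and MTOR by 0.89 ± 0.10 (edgeR adjusted p = 0.000651). The AMPK catalytic subunit genes PRKAA1 (log2 fold change -0.14) and PRKAA2 (0.16), named after their values were seen, were not called. PRKAG2, the AMPK gamma subunit gene that fell (-0.41, edgeR adjusted p = 0.0496), was also named after its values were seen, and its call was lost without any 1 library other than CMR replicate 1. Its adjusted p was 0.0798 and 0.0526 without CMR replicates 2 and 3, and 0.128, 0.0902 and 0.139 without control replicates 1, 2 and 3. It was 0.0551 with RLE scaling, 0.0545 with DESeq2 and 0.079 without the filter on low counts in edgeR. Of 10 partners of the PI3K complex and enzymes of phosphatidylinositol 3-phosphate turnover, 7 rose and 1 fell, with a median of 0.67 over the 9 tested. NRBF2, a subunit that binds the ATG14 form of the complex, rose by 1.49 ± 0.15 (edgeR adjusted p = 0.000455), the phosphatase gene MTMR14 by 1.13 ± 0.11 (edgeR adjusted p = 0.000340) and the lipid kinase gene PIK3C2A by 0.99 ± 0.22 (edgeR adjusted p = 0.00994). BCL2L1, which binds BECN1, was the gene that fell (-0.53, edgeR adjusted p = 0.00370) and was named after its values were seen.

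Of 15 genes for fusion of autophagosomes with lysosomes, 9 rose and 1 fell, with a median of 0.32, again beside 20.5% of all tested genes called higher and 18.1% lower. The SNARE gene YKT6 rose by 1.42 ± 0.11 (edgeR adjusted p = 0.000197) and VPS39, a subunit of the HOPS tether, by 0.87 ± 0.13 (edgeR adjusted p = 0.00230). VAMP8, the SNARE on lysosomes, had 50.9, 42.2 and 32.8 CPM with CMR, against 76.7, 76.5 and 63.3 in control, and fell by 0.78 on the log2 scale (edgeR adjusted p = 0.0106). Of 8 transcription factors known to act on autophagy genes, 4 rose and 1 fell, with a median of 0.59. DDIT3 (CHOP) rose by 2.55 ± 0.09 (edgeR adjusted p = 2.7e-05), FOXO3 by 1.54 ± 0.12 (edgeR adjusted p = 0.000205) and ATF4 by 1.35 ± 0.08 (edgeR adjusted p = 8.3e-05). TFEB, the member that fell, had 0.348, 0.808 and 0.732 CPM with CMR, against 2.47, 1.08 and 2.0 in control (-1.55 ± 0.45, edgeR adjusted p = 0.0305), and was named after its values were seen. The TFEB call was lost without CMR replicate 1 (0.0628), 2 (0.0507) or 3 (0.0619) and without control replicate 1 (0.104) or 3 (0.0824). TFEB averaged only 0.0873 FPKM with CMR and 0.276 FPKM in control. TFE3 and MITF, also on this list, were named after their values were seen. TFE3 averaged 25.28 FPKM with CMR and 15.04 FPKM in control, and rose (0.826, edgeR adjusted p = 0.000423). MITF was not called (-0.403, edgeR adjusted p = 0.0675).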

How the data were processed

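RNA was sequenced from 6 libraries, 3 with 8 µM CMR for 48 h and 3 control, grouped by the labels. Per the file headers, the table lists for every gene and library the count and the FPKM. The counts as deposited are whole and not normalized. The authors' FPKM, by its definition a count per length and library total, is 0.0001 where a gene had no count. For members with over 100 counts in every library, the length implied by count and FPKM varied by at most 3.74% between libraries. The submitters' processing notes name Bowtie 0.12.2, HISAT2 2.0, StringTie 1.3.0 and the mouse build mm8, while the identifiers are human. Of 58552 genes found in GENCODE 29, 47556 (81.2%) have the same GRCh38 coordinates, so positions were read as GRCh38. Among the 38 members 16 have the same coordinates, so member spans and overlaps are those of the deposited table. The sources used here do not give strandedness or the assignment of shared reads, so overlapping expressed genes with at least 10% of a member's mean count are named beside it.

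The quasi-likelihood test of edgeR 4.0.16 (R 4.3.3) was run on counts with TMM factors, after filterByExpr at a minimum count of 10 and a minimum total of 15. The p-values were adjusted by Benjamini-Hochberg over 19200 genes. Calls needed an adjusted p under 0.05, and were at least 2-fold if past a log2 fold change of 1. Intervals of fold changes are 95%. Normalised CPM used the same factors and compares libraries within a gene, and FPKM compares genes. Orders and shares across genes therefore depend on the gene lengths behind the FPKM. The fitting code was tested on simulated data. There it recovered 2% of 1.5-fold, 28% of 2-fold, 66% of 4-fold and 82% of 8-fold changes, with 4 false calls. Far fewer genes were changed there than were called here, so these shares do not carry over to the members. A member that was not called is not thereby shown to be unchanged. Alternatives were RLE, upper-quartile and library-size scaling, filters, DESeq2 1.42.0, limma 3.58.1 on log2(FPKM + 0.1) or log2(FPKM + 1) for genes above 0.5 FPKM in at least 3 libraries, the replicate number as a block, and leaving out each library. The members and gene lists were chosen with earlier results of these data known. Values of every library are given for members called with at least a 2-fold difference and for the largest called rise and fall in each role, plus BECN1 and some uncalled members named after their values were seen. Up to 3 called genes per neighbouring list, with at least 5 FPKM in the higher group, were named by size of change.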

Additional observations from a re-analysis of the deposited data

How the results depend on the processing

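Over 15 alternatives, 20 of the 25 members that rose kept their call in each alternative that tested them. The other 5 (UVRAG, ATG2A, ATG9A, ATG4B and MAP1LC3A) lost it in at least 1, and so did both members that fell. Leaving out 1 library gave 20 to 24 members called higher, 0 to 1 called lower, and 5660 to 7711 called genes in all, against 7404. With edgeR and no filter on low counts, 0 members were called lower, with adjusted p at 0.0655 for ULK2 and 0.0542 for ATG16L2. Another 0 were called lower with a filter at 5 FPKM (mean of whichever group is higher), which left ULK2 and ATG16L2 untested. That filter kept 23 members, of which 19 were called higher, and 7154 genes, of which 4455 were called in either direction. It admits a gene through its higher group alone, so these member counts are not separate support. Same-numbered libraries correlated at 0.03, 0.04 and 0.05 in their deviations from the group means, and each library correlated best with its own number. These values are near 0, and deviations from a group mean sum to 0, so the correlations depend on each other. They cannot decide whether the numbers pair, and no label says so. With the replicate number as a block, 6737 genes were called, 24 members were higher and 1 was lower; the calls of ULK2 (0.0658), MAP1LC3A (0.0609) and TFEB (0.0822) missed the adjusted threshold in that fit of edgeR. Small differences of uncalled members changed sign, and the cause was not tested. With upper-quartile scaling the log2 fold change was -0.034 for AMBRA1, -0.019 for ATG4C and -0.075 for VMP1. VMP1 was at -0.017 with library size only, -0.011 with the 5 FPKM filter and -0.017 with limma at either pseudocount, and between -0.044 and 0.13 with 1 library left out. ATG4D was between -0.048 and 0.27 with 1 library left out. Members under about 1 FPKM, such as ATG16L2, rest on few counts, and 3 libraries per group limit the precision.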
